A study of Mus musculus with 34 samples.

Results

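Chemokines and inflammatory cytokines were followed through the RNA-Seq libraries of brown preadipocytes, the precursors of brown fat cells. They were taken as every gene whose symbol starts with Ccl or Cxcl followed by a digit, together with *Cx3cl1*, *Il6*, *Il11*, *Il1b*, *Il33*, *Lif*, *Tnf*, *Csf1*, *Csf2*, and *Csf3*. The rule uses names and no measured value, and it found 46 of the 23109 genes (23 Ccl genes, 13 Cxcl genes, and 10 others, with 59 RefSeq transcripts in all). Levels are RPKM, the reads of a transcript divided by its length and by the sequencing depth of its library, and where a gene has several transcripts, the one with the highest mean over the libraries stands for it. Of the 46 genes, 26 reached 1 RPKM in at least 1 of the 14 libraries, 18 reached 5 RPKM, 20 never reached 1 RPKM, and 1 of these 20, *Ccl19*, was at 0 in every library.

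The study asked how loss of methylation on lysine 36 of histone H3 affects the making of fat cells. Preadipocytes from interscapular brown fat of newborn mice, immortalized with SV40T, carried retroviral WT histone H3.3 (WT) or its K36M mutant (K36M), a lysine-to-methionine histone that lowers this methylation. They were profiled at D0 (confluent, before induction), at D2 of adipogenesis, and at D7. Sub-confluent WT and K36M cells that also carried ectopic PPARγ, the nuclear receptor that drives fat cell formation, received DMSO or its ligand rosiglitazone (Rosi), and other cells carried control (Ctrl) or *Nsd2* knockdown (Nsd2 KD) hairpins at D0 and D2, Nsd2 being a methyltransferase for this lysine. The labels give strain C57BL/6J and a floxed glucocorticoid receptor for all of these cells, with an empty vector or Cre given as the way to WT or receptor-deficient cells. They do not say which vector each library's cells received, and the paper's methods describe WT mice. Induction medium held insulin, T3, IBMX, dexamethasone, and indomethacin for the first 2 days, and insulin and T3 alone followed, so the D2 cells were the only ones collected from medium with the last 3 agents. The paper describes 24 h of treatment with either DMSO or Rosi, whereas DMSO samples are labelled 0 h and Rosi samples 24 h. If the labels give the time of collection, the ligand and the time in culture cannot be told apart. Each condition has 1 library, and no difference between conditions was tested.

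Chemokines are small secreted proteins that draw leukocytes along a gradient. Their CC and CXC names describe the spacing of conserved cysteines, and most act through G protein-coupled receptors carried by monocytes, neutrophils, or lymphocytes. Fibroblast-like stromal cells, the preadipocytes of fat among them, are known producers of Ccl2, Cxcl1, Cxcl12, Il6, and Csf1, and many of these genes are classical targets of the transcription factor NF-κB. In fat, Ccl2 and Csf1 are known for the recruitment and survival of macrophages.

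Mapped reads, inferred from the RPKM values and annotated transcript lengths, ranged from 12213559 to 24365867 per library. On this scale, 3 reads on a transcript of 1 kb equal 0.123 to 0.246 RPKM. The cells matched their label as preadipocytes that become fat cells. *Fabp4*, a fatty acid carrier of fat cells, was at 37.6, 3249, and 2644 RPKM in WT cells at D0, D2, and D7. By contrast, *Ucp1* and *Cidea*, which define brown fat cells, stayed at or below 0.194 RPKM in all libraries, so these markers of mature brown fat were at or near 0. Of 13 macrophage and leukocyte markers, 11 never reached 1 RPKM (at most 0.715), and *Ptprc*, the pan-leukocyte CD45 gene, and the macrophage gene *Itgam* peaked at 0.0391 and 0.0351. The macrophage gene *Cd68*, also chosen as a marker, had no value here and is not among the 13. The 13 markers summed to between 0.535 and 8.42 RPKM per library, with 1 to 10 of them at 0. The 2 that reached 1 RPKM, *Cd14* and *Csf1r*, peaked at 7.97 and 2.95, and *Csf1r* is also listed among the receptors. Endothelial markers summed to at most 2.97 RPKM. *Nsd2* was at 19.9 and 29.0 RPKM in Ctrl cells at D0 and D2 and at 5.85 and 7.01 in Nsd2 KD cells.

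The promoters of 3 genes with an NF-κB motif and of 1 without are shown, because the genes they belong to take different courses in the libraries below. Each is the 150 bases before the RefSeq start (build GRCm38.p6 table), found once on its chromosome in mm9, at chr5:91320121-91320270 (+) for *Cxcl1*, chr5:92777916-92778065 (-) for *Cxcl10*, chr5:30339504-30339653 (+) for *Il6*, and chr6:117118403-117118552 (+) for *Cxcl12*. Capitals mark matches to the NF-κB consensus, to the AP-1 motif TGANTCA, and to the C/EBP motif TTGCNNAA on either strand, and *Cxcl12* holds none.
Cxcl1: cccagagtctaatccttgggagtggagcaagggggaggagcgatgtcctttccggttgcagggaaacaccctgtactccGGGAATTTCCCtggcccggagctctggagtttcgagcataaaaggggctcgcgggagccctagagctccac
Cxcl10: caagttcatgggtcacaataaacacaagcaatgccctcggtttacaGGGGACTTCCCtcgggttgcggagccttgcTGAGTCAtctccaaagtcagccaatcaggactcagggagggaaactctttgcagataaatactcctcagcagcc
Il6: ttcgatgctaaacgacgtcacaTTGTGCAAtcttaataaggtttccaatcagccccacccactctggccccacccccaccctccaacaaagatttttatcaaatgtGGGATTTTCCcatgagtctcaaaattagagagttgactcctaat
Cxcl12: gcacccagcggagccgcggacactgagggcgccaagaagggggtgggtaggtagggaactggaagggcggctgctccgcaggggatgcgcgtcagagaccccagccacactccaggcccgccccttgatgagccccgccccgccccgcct
Counted from the start, the *Cxcl1* capitals are 2 overlapping NF-κB matches at -71 to -62 and -70 to -61 on opposite strands. In *Cxcl10* they are overlapping NF-κB matches at -104 to -95 and -103 to -94 and an AP-1 match at -74 to -68. In *Il6* they are an NF-κB match at -44 to -35 and a C/EBP match at -128 to -121 on the reverse strand. A promoter sequence was found for 33 of the 46 genes, 17 of them among the 26 that reached 1 RPKM. In the 250 bases before the start, the NF-κB consensus lay in 9 of these 17 (*Ccl9*, *Ccl20*, *Csf1*, *Cxcl1*, *Cxcl2*, *Cxcl3*, *Cxcl10*, *Il6*, *Lif*) and in 7.01% of 27025 promoters. AP-1 lay in 4 of 17 and in 6.87% of promoters, and C/EBP in 2 of 17 and in 9.55%. A match describes letters and is not evidence of binding.

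Ccl2, which attracts monocytes through the receptor Ccr2, was among the most abundant transcripts of the WT cells at D0. It was at 1216 RPKM there, the rank 3 gene of the library. *Ccl7*, its neighbour with the same receptor, was at 811 (rank 9), *Csf1*, the growth factor of macrophages, at 457 (rank 29), and *Cxcl12*, a chemokine of stromal niches that acts on Cxcr4, at 284 (rank 63). *Cxcl1*, *Cxcl10*, and *Ccl5* stood at 231, 221, and 218. In contrast, the classical macrophage cytokines were nearly silent: *Tnf* peaked at 0.253 RPKM and *Il1b* at 0.0601. *Csf2*, another leukocyte growth factor, peaked at 0.713. The other genes below 1 RPKM throughout were *Ccl1*, *Ccl3*, *Ccl6*, *Ccl12*, *Ccl17*, *Ccl21a*, *Ccl21b*, *Ccl21c*, *Ccl22*, *Ccl24*, *Ccl26*, *Ccl27b*, *Cxcl13*, *Cxcl14*, *Cxcl15*, and *Cxcl17*, the highest being *Ccl17* at 0.958. *Ccl21a*, *Ccl21b*, and *Ccl21c*, like *Ccl27a* and *Ccl27b*, are near-identical copies, and how reads were split between them is not known.

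**Figure D1:**
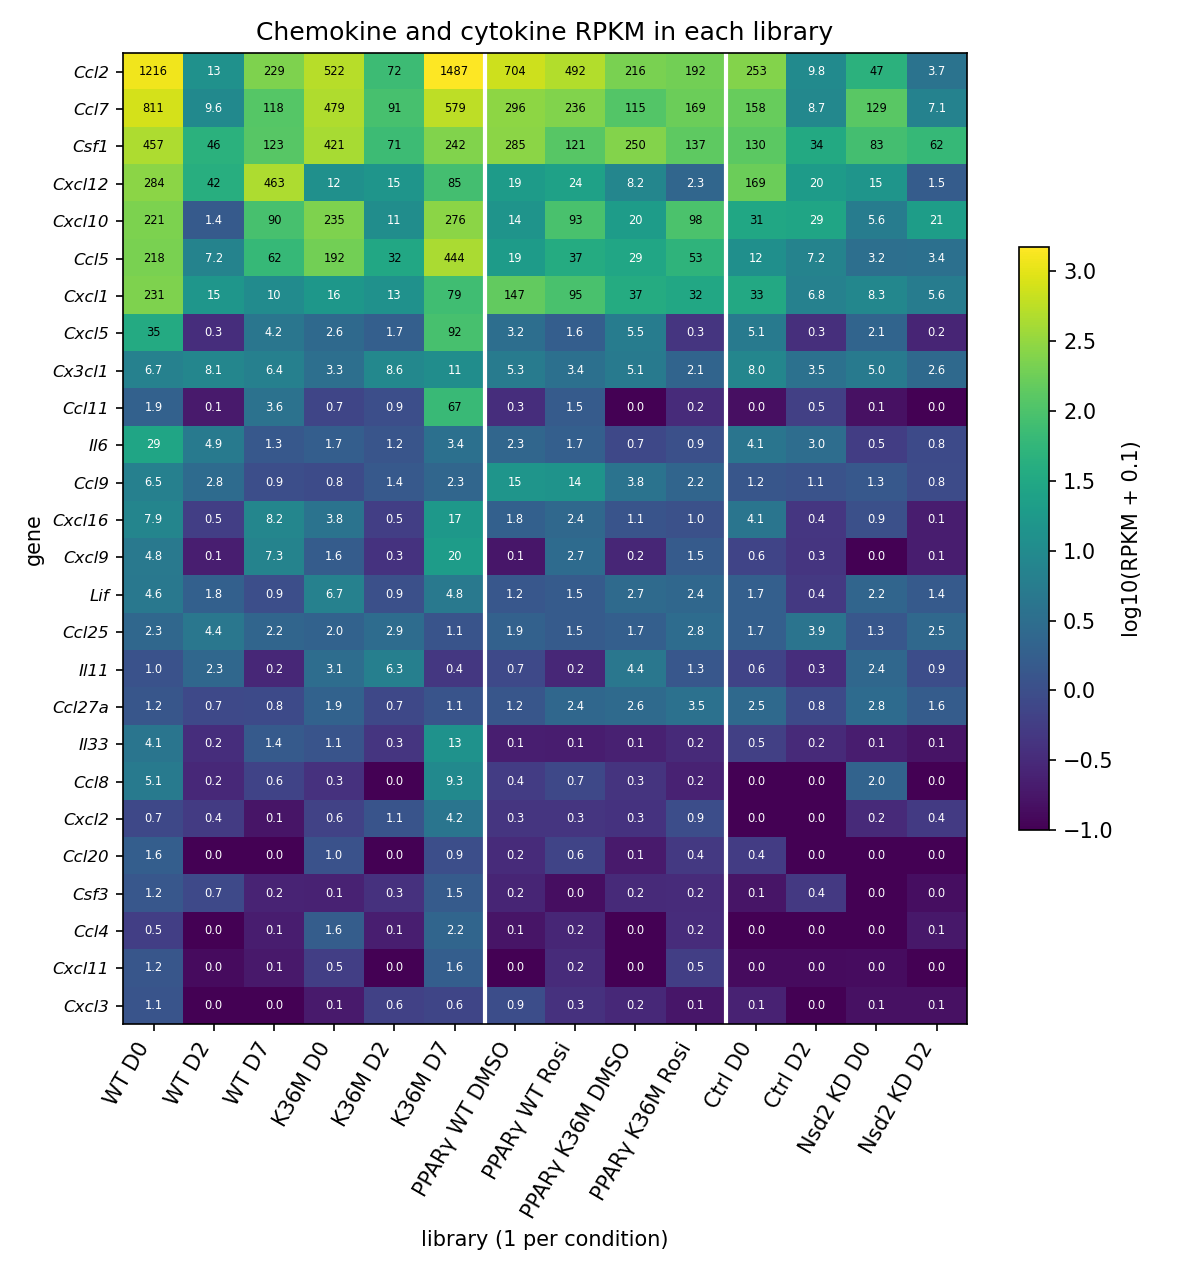
RPKM of the 26 genes that reached 1 RPKM (rows, by mean level) in each of the 14 libraries (columns, 1 per condition), with the RPKM printed in each cell and the color on a log10(RPKM + 0.1) scale. *Ccl2* spans 3.72 to 1487 RPKM. The D2 columns of WT, K36M, Ctrl, and Nsd2 KD cells are darker than their D0 columns for most of the upper rows. Exceptions include *Cxcl12* in K36M cells and *Cxcl10* in Nsd2 KD cells.

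Neighbouring genes differed widely in level. On chromosome 11 (mm9), *Ccl2* (81849073 to 81850955), *Ccl7* (81859214 to 81861027), *Ccl11* (81871325 to 81876457), *Ccl12* (81915347 to 81916902), and *Ccl8* (81928687 to 81930301) follow each other on the same strand. The first pair peaked at 1487 and 811 RPKM, *Ccl11* at 67.4, *Ccl8* at 9.29, and *Ccl12*, which lies between these, at 0.153. On chromosome 5, *Cxcl1* (91320267 to 91322141) peaked at 231 RPKM and its neighbour *Cxcl2* (91332897 to 91334935) at 4.16. These 2 genes and *Cxcl3* are similar in sequence, so reads may be shared, and *Cxcl12* is given by 1 of its 3 transcripts, between which reads may also be split.

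The first comparison asks what happens to these genes when preadipocytes are induced. In WT cells most of the expressed chemokines were far lower at D2 than at D0. A gene was counted when it had at least 1 RPKM in at least 1 of the 2 libraries and was called at a ratio over 2-fold, and log2 ratios, often given in parentheses, are followed in brackets by 95% Clopper-Pearson limits that cover counting error alone. Since a gene can pass this level through its higher library, counts are read beside the share of all genes called in the same way. From D0 to D2, 19 of 24 counted genes were lower and 1 was higher, beside 17.3% and 9.38% of all genes, and the median log2 ratio was -3.96 beside -0.01 for all genes.

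*Ccl2* was at 1216, 12.8, and 229 RPKM at D0, D2, and D7 in WT cells, a log2 ratio of -6.57 [-6.78 to -6.37] from D0 to D2. *Ccl7* was at 811, 9.63, and 118, with -6.40 [-6.64 to -6.16]. *Ccl5*, a T cell and monocyte attractant, was at 218, 7.20, and 61.9, with -4.92 [-5.27 to -4.58]. These 3 CC chemokines had their lowest WT level at D2. *Ccl8*, a further monocyte attractant, was at 5.12, 0.205, and 0.588 RPKM (-4.64 [-7.73 to -2.72]), and the eosinophil attractant *Ccl11* at 1.87, 0.0976, and 3.64 (-4.26 [-7.35 to -2.32]), the wide intervals coming from few reads at D2. *Ccl9* took another course, from 6.47 to 2.82 and 0.924 RPKM, lower at each step (-1.20 [-1.47 to -0.93] and then -1.61 [-2.17 to -1.09]).

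Among the CXC chemokines, *Cxcl10*, an interferon-inducible ligand of Cxcr3, had the lowest D0 to D2 ratio of the named genes. It went from 221 to 1.43 RPKM, 155-fold lower, with a log2 ratio of -7.28 [-7.86 to -6.75], and stood at 89.6 at D7. *Cxcl9*, with the same receptor, was at 4.81, 0.126, and 7.29 (-5.25 [-6.58 to -4.19]). The neutrophil attractants *Cxcl1* and *Cxcl5* were both lower at D2 but parted afterwards. *Cxcl1* was at 231, 15.2, and 10.3 RPKM (-3.92 [-4.10 to -3.75]), with no return at D7, whereas *Cxcl5* was at 35.3, 0.253, and 4.22 (-7.12 [-8.34 to -6.14]). *Cxcl12* was at 284, 41.6, and 463 RPKM (-2.77 [-2.85 to -2.69]), and its D7 level was the highest of any library. *Cxcl16*, a membrane-bound chemokine, was at 7.87, 0.492, and 8.19 (-4.00 [-4.67 to -3.39]). *Cx3cl1*, the other membrane-bound chemokine, differed by less than 2-fold at each step, at 6.68, 8.08, and 6.43 RPKM.

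The cytokines divided. *Csf1* was at 457, 45.8, and 123 RPKM (-3.32 [-3.37 to -3.27]), and the alarmin *Il33* at 4.11, 0.248, and 1.42 (-4.05 [-5.03 to -3.22]). *Il6*, the prototype of the cytokines that signal through gp130, was at 28.6, 4.91, and 1.31 (-2.54 [-2.86 to -2.24]), lower again at D7. *Lif*, of the same family, was at 4.55, 1.78, and 0.890 (-1.36 [-1.66 to -1.06]), and its D2 to D7 ratio lay just inside 2-fold. *Il11*, also of this family, was the 1 gene higher at D2, at 1.01, 2.34, and 0.193 RPKM (1.21 [0.67 to 1.78]), before it was lower at D7 (-3.60 [-5.26 to -2.32]).

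From D2 to D7, 11 of 18 counted genes in WT cells were higher and 3 (*Ccl9*, *Il11*, *Il6*) were lower, beside 15.7% and 5.08% of all genes, with a median of 2.81 beside 0.04. This comparison and the one before share the D2 library, so a low D2 library enters both. The log2 ratios of the CC chemokines were 4.16 [3.95 to 4.38] for *Ccl2*, 3.62 [3.37 to 3.87] for *Ccl7*, 3.11 [2.75 to 3.48] for *Ccl5*, and 5.22 [3.30 to 8.30] for *Ccl11*. For the CXC chemokines they were 5.97 [5.44 to 6.56] for *Cxcl10*, 5.85 [4.79 to 7.18] for *Cxcl9*, 4.06 [3.02 to 5.31] for *Cxcl5*, 3.48 [3.40 to 3.56] for *Cxcl12*, and 4.06 [3.44 to 4.74] for *Cxcl16*. *Csf1* was higher by 1.43 [1.37 to 1.49], *Il33* by 2.52 [1.59 to 3.57], and *Il6* was lower by a ratio of -1.90 [-2.69 to -1.19].

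**Figure D2:**
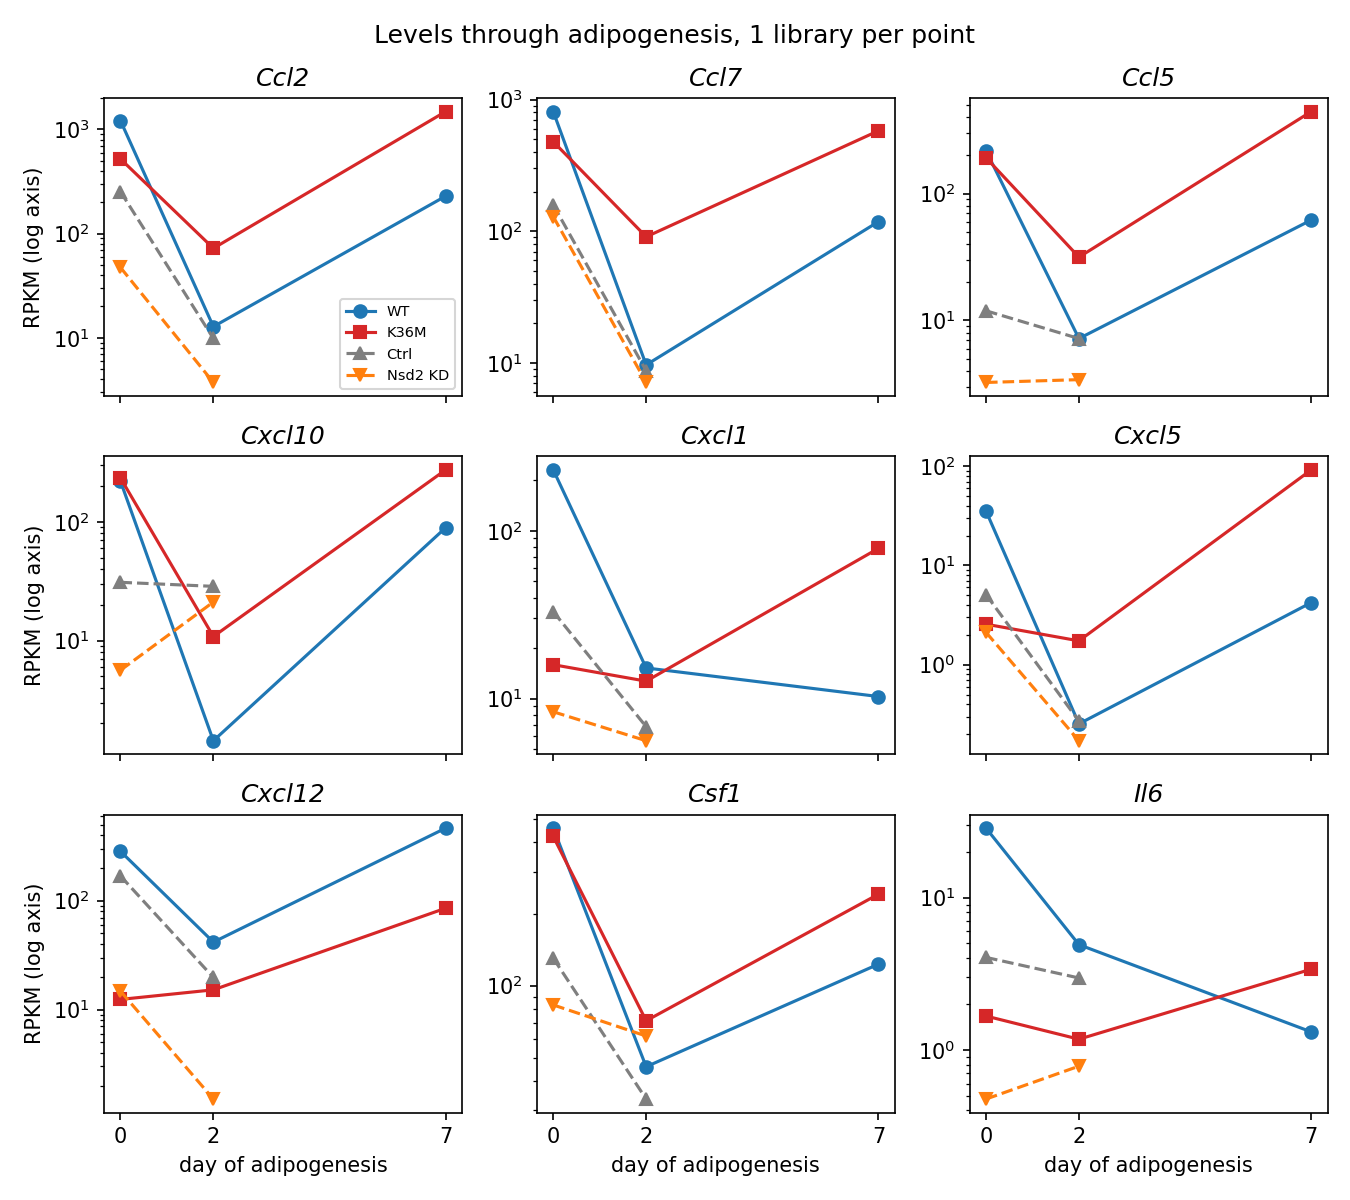
RPKM (log axis, each panel on its own range) of 9 genes at D0, D2, and D7 in WT and K36M cells (solid lines) and at D0 and D2 in Ctrl and Nsd2 KD cells (dashed lines), 1 library per point. *Ccl2* and *Ccl7* are lower at D2 than at D0 in each of the 4 cell populations, whereas *Cxcl12* in K36M cells is at 12.4 and 15.2 RPKM at D0 and D2.

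In K36M cells the most abundant chemokines other than *Cxcl12* and *Cxcl1* were also lower at D2 than at D0, and several stood above their D0 level at D7. From D0 to D2, 12 of 21 counted genes were lower and 2 (*Cx3cl1*, *Il11*) were higher, beside 11.2% and 10.2% of all genes (median -1.58 beside -0.07). *Ccl2* was at 522, 72.3, and 1487 RPKM at D0, D2, and D7, with log2 ratios of -2.85 [-2.96 to -2.74] and 4.36 [4.25 to 4.47]. *Ccl7* was at 479, 90.6, and 579, with -2.40 [-2.50 to -2.30] and 2.68 [2.57 to 2.78]. *Ccl5* was at 192, 31.6, and 444, with -2.60 [-2.82 to -2.40] and 3.81 [3.61 to 4.02]. Thus these 3 genes kept higher D2 levels than in WT cells. *Cxcl10* was at 235, 10.8, and 276 RPKM (-4.44 [-4.69 to -4.21] and 4.67 [4.43 to 4.92]), *Csf1* at 421, 71.3, and 242 (-2.56 [-2.61 to -2.52] and 1.76 [1.71 to 1.81]), and *Lif* at 6.74, 0.925, and 4.83 (-2.86 [-3.34 to -2.42] and 2.38 [1.91 to 2.89]). *Cxcl16* was at 3.83, 0.489, and 16.6 (-2.97 [-3.83 to -2.21] and 5.08 [4.35 to 5.93]), *Cxcl9* at 1.56, 0.302, and 20.3 (-2.37 [-3.42 to -1.46] and 6.07 [5.22 to 7.08]), and *Il33* at 1.11, 0.346, and 13.1 (-1.68 [-2.77 to -0.74] and 5.24 [4.38 to 6.25]). *Il11* and *Cx3cl1* were the ones higher at D2, *Il11* at 3.06, 6.32, and 0.379 RPKM (1.05 [0.69 to 1.41] and then -4.06 [-5.22 to -3.10]) and *Cx3cl1* at 3.25, 8.63, and 10.9 (1.41 [1.15 to 1.67]).

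From D2 to D7, 19 of 24 counted genes in K36M cells were higher and 2 (*Ccl25*, *Il11*) were lower, beside 15.7% and 7.02% of all genes (median 2.56 beside 0.07). Most of the genes lower in K36M than in WT cells at D0 were among them. Exceptions were *Ccl9* (0.74 [0.22 to 1.27]) and *Cx3cl1* (0.33 [0.12 to 0.55]), inside 2-fold, and *Cxcl3*, below 1 RPKM on both days and so not counted. *Cxcl5* was at 2.56, 1.74, and 91.8 RPKM, a D2 to D7 ratio of 5.72 [5.25 to 6.24]. *Ccl11* was at 0.657, 0.893, and 67.4 (6.24 [5.43 to 7.20]), *Cxcl1* at 15.9, 12.7, and 78.5 (2.63 [2.38 to 2.89]), and *Cxcl12* at 12.4, 15.2, and 85.2 (2.49 [2.33 to 2.66]). *Il6* was at 1.67, 1.17, and 3.39 (1.53 [0.68 to 2.45]), the opposite direction to WT cells. *Ccl8* had no read at D2 and 9.29 RPKM at D7, at least 19.8-fold higher against 3 reads in the D2 library.

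NF-κB pathway genes past 2-fold had the direction of the chemokines at 3 of these 4 steps. Of 21 counted, 7 were lower and 0 higher from D0 to D2 in WT cells, with 14 inside 2-fold, beside 17.3% and 9.38% of all genes. From D2 to D7 in WT cells 6 were higher and 0 lower, with 15 inside 2-fold, beside 15.7% and 5.08%. From D2 to D7 in K36M cells 8 were higher and 0 lower, with 13 inside 2-fold, beside 15.7% and 7.02%. From D0 to D2 in K36M cells 1 was higher (*Bcl3*) and 1 was lower (*Relb*), with 19 inside 2-fold, beside 10.2% and 11.2%. *Relb*, an NF-κB subunit, was at 22.7, 5.12, and 10.4 RPKM in WT cells and at 14.4, 4.79, and 26.5 in K36M cells. Preadipocyte markers followed the same course in WT cells. In WT cells *Pdgfra*, the receptor that marks mesenchymal progenitors, was at 29.5, 5.68, and 48.7 RPKM and *Ly6a*, the Sca-1 gene, at 197, 31.3, and 169, and 5 of 6 preadipocyte markers were lower from D0 to D2 and higher from D2 to D7. In K36M cells 1 of the 6 was lower and 1 higher from D0 to D2, and 5 were higher and 1 lower from D2 to D7. In a bulk library, fewer cells of a type and less RNA per cell cannot be told apart, and the part of these shifts in the chemokine values was not tested.

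Direct comparison of K36M with WT cells gave opposite directions before and after adipogenesis. At D0, 15 of 25 counted genes were lower in K36M cells and 2 (*Ccl4*, *Il11*) were higher, beside 6.36% and 5.02% of all genes (median -1.22 beside 0.09). With a pseudocount of 1 RPKM, 9 were lower and 1 was higher. *Cxcl12* had the lowest ratio, at 12.4 RPKM against 284, a log2 ratio of -4.52 [-4.66 to -4.38]. The neutrophil attractants were also much lower, *Cxcl1* at 15.9 against 231 (-3.86 [-4.03 to -3.69]) and *Cxcl5* at 2.56 against 35.3 (-3.79 [-4.12 to -3.47]). *Il6* was at 1.67 RPKM against 28.6 (-4.10 [-4.63 to -3.62]), and *Ccl2* at 522 against 1216 (-1.22 [-1.26 to -1.18]). The other genes of at least 5 RPKM that were lower were *Ccl8* (-4.12 [-6.44 to -2.49]), *Ccl9* (-3.04 [-3.51 to -2.60]), *Il33* (-1.89 [-2.34 to -1.46]), *Cxcl9* (-1.63 [-1.98 to -1.28]), *Ccl11* (-1.51 [-2.50 to -0.61]), *Cxcl16* (-1.04 [-1.30 to -0.79]), and *Cx3cl1* (-1.04 [-1.28 to -0.80]). Not all chemokines took part. *Cxcl10* was at 235 RPKM against 221 (0.09 [0.03 to 0.15]), *Ccl5* at 192 against 218 (-0.18 [-0.27 to -0.10]), and *Csf1* at 421 against 457 (-0.12 [-0.14 to -0.09]), each inside 2-fold. *Il11* was higher, at 3.06 RPKM against 1.01 (1.60 [1.08 to 2.14]). Beside these, 2 of 6 preadipocyte markers, *Pdgfra* (-1.83) and *Ly6a* (-1.70), and 4 of 21 NF-κB pathway genes were lower in K36M cells at D0, and none of either list was higher. Of 5 adipocyte markers, 3 (*Adipoq*, *Fabp4*, *Lpl*) were lower and 0 higher. The part of these shifts in the chemokine values was not tested.

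At D2 the picture was mixed, with 7 of 15 counted genes higher and 3 lower in K36M cells, beside 11.2% and 4.37% of all genes (median 0.64 beside 0.07). The higher genes included *Ccl7* (3.23 [2.98 to 3.50]), *Cxcl10* (2.92 [2.34 to 3.55]), *Cxcl5* (2.78 [1.65 to 4.09]), *Ccl2* (2.50 [2.27 to 2.73]), *Ccl5* (2.13 [1.74 to 2.54]), and *Il11* (1.43 [1.04 to 1.83]). *Il6* (-2.06 [-2.92 to -1.30]), *Cxcl12* (-1.46 [-1.63 to -1.29]), and *Ccl9* (-1.06 [-1.54 to -0.60]) were lower. So *Ccl2* and *Cxcl5* had already crossed from below to above the WT level. Beside these, 4 of 6 adipocyte markers (*Cebpa*, *Fabp4*, *Lpl*, *Plin1*) were lower in K36M cells at D2 and 0 higher. Of 6 preadipocyte markers, 2 (*Dlk1*, *Ly6a*) were higher and 0 lower, and *Cd14* was higher. Of 20 NF-κB pathway genes, 1 (*Ikbke*) was higher and 0 lower. The part of these shifts in the chemokine values was not tested.

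At D7, 18 of 23 counted genes were higher in K36M cells and 1, *Cxcl12*, was lower, beside 11.7% and 8.46% of all genes (median 2.44 beside 0.12). *Ccl2* was at 1487 RPKM against 229 (2.70 [2.64 to 2.76]), *Ccl7* at 579 against 118 (2.29 [2.21 to 2.38]), and *Ccl5* at 444 against 61.9 (2.84 [2.70 to 2.99]). *Ccl11* was highest in this library, at 67.4 RPKM against 3.64 (4.21 [3.81 to 4.64]), and reached at most 3.64 RPKM in the other 13 libraries. *Cxcl5* was at 91.8 against 4.22 (4.44 [4.14 to 4.76]), and *Cxcl1* at 78.5 against 10.3 (2.93 [2.67 to 3.21]). *Il33* (3.20 [2.76 to 3.66]), *Ccl8* (3.98 [2.55 to 5.91]), *Lif* (2.44 [1.97 to 2.94]), *Cxcl10* (1.62 [1.53 to 1.71]), *Cxcl9* (1.48 [1.28 to 1.68]), *Il6* (1.37 [0.57 to 2.23]), *Ccl9* (1.29 [0.72 to 1.89]), and *Cxcl16* (1.02 [0.80 to 1.24]) were higher too. *Csf1*, at 242 RPKM against 123, lay just inside 2-fold (0.97 [0.93 to 1.02]). *Cxcl12* was at 85.2 RPKM against 463 (-2.44 [-2.51 to -2.37]), and so was the 1 gene of at least 5 RPKM lower in K36M cells on all 3 days.

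Of 22 genes counted at both D0 and D7, 12 were lower in K36M cells at D0 and higher at D7 (*Ccl2*, *Ccl8*, *Ccl9*, *Ccl11*, *Cxcl1*, *Cxcl5*, *Cxcl9*, *Cxcl11*, *Cxcl16*, *Csf3*, *Il6*, *Il33*), beside 1.17% of all genes. At D7 all 6 counted adipocyte markers were lower in K36M cells, *Fabp4* at 143 RPKM against 2644, and 6 of 21 NF-κB pathway genes were higher and 0 lower. Of 6 preadipocyte markers, 2 (*Ly6a*, *Pdgfrb*) were higher and 1 (*Zfp423*) was lower. Of all genes, 11.7% were higher and 8.46% lower at D7. Leukocyte markers summed to 4.73 RPKM in the K36M and 2.13 in the WT library at D7, of which *Cd14* made up 3.61 and 1.50, with *Ptprc* at or below 0.0391 in all libraries. At D0 the sums were 2.83 and 3.94. The part of fewer fat cells and of the other marker shifts in the D7 values was not tested.

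**Figure D3:**
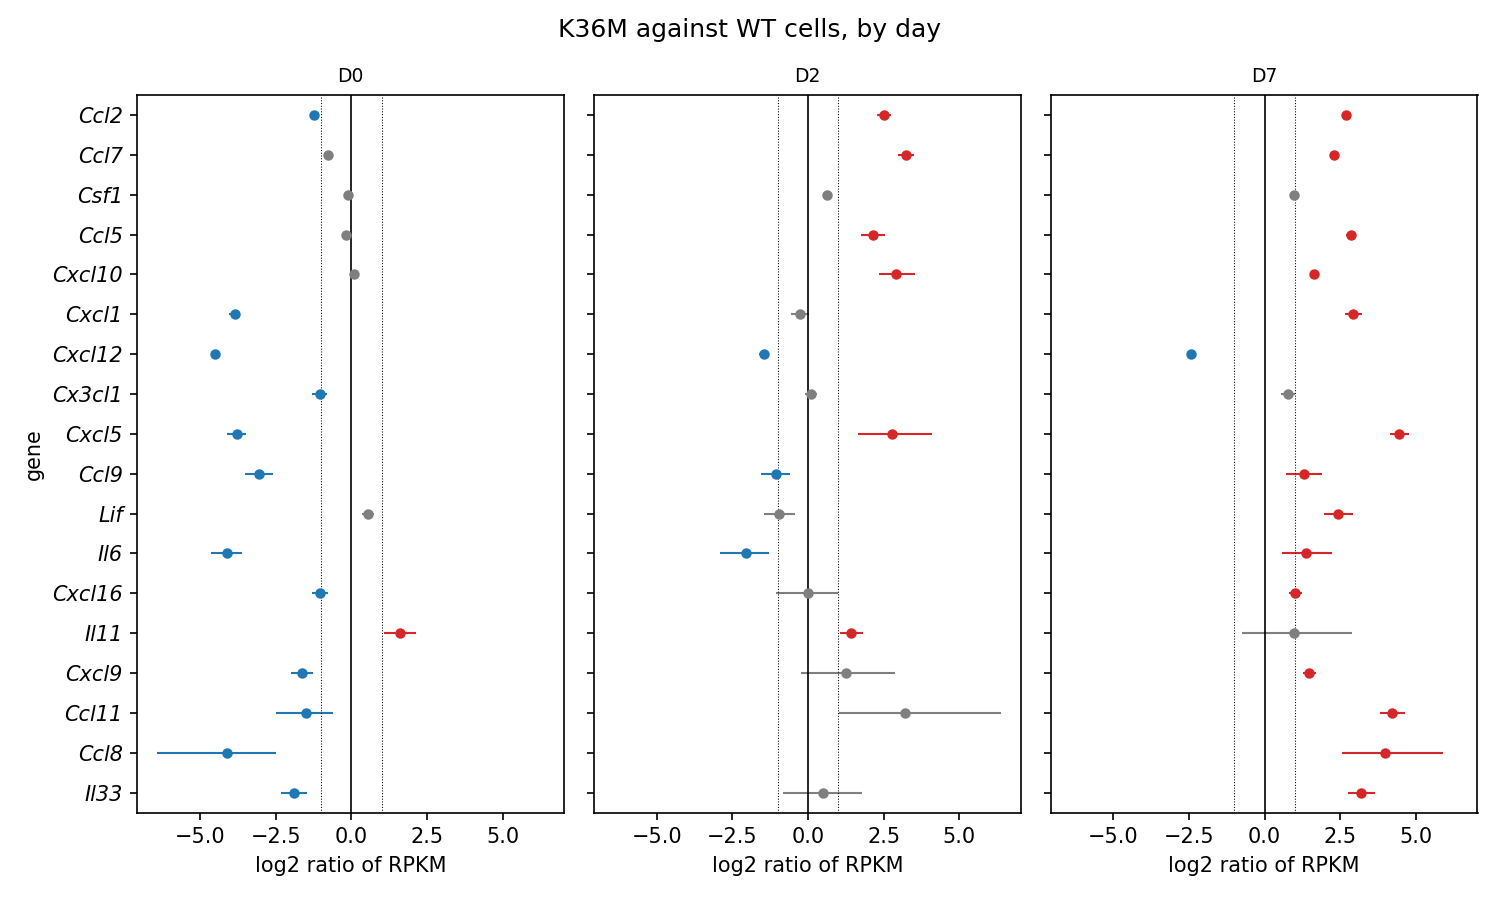
Log2 ratio of K36M to WT RPKM for the 18 genes that reached 5 RPKM, at D0, D2, and D7, with bars for the 95% counting interval and dotted lines at 2-fold. Red is over 2-fold higher, blue over 2-fold lower, gray neither or below 1 RPKM in both libraries, and no point is drawn where a library had no read. Most points lie left of 0 at D0 and right of 0 at D7, with *Cxcl12* on the left on each day.

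Other comparisons of undifferentiated cells ask whether the D0 difference recurs with ectopic PPARγ and with loss of Nsd2. Of 16 genes counted in all 3 comparisons, 4, *Ccl2*, *Cxcl1*, *Cxcl12*, and *Il6*, were lower in K36M cells at D0, in K36M cells with PPARγ and DMSO, and in Nsd2 KD cells at D0, beside 0.721% of all genes. *Il11* was the 1 gene higher in all 3, beside 0.613% of all genes. No library is shared between these comparisons.

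In the cells with PPARγ and DMSO, 6 of 16 counted genes were lower with K36M and 3 (*Ccl27a*, *Il11*, *Lif*) were higher, beside 3.11% and 5.09% of all genes (median -0.18 beside -0.02). When all genes above 0 RPKM are counted, 12 were lower and 14 higher, so the balance of directions turned. Genes with few reads enter this count, and the K36M library had 20121 genes above 0 RPKM beside 18385 in the WT library. *Ccl2* was at 216 and 704 RPKM in K36M and WT cells (-1.70 [-1.75 to -1.65]), and *Ccl7* at 115 and 296 (-1.36 [-1.43 to -1.29]). *Cxcl1* was at 36.5 and 147 (-2.01 [-2.12 to -1.90]), *Ccl9* at 3.78 and 14.7 (-1.96 [-2.16 to -1.77]), and *Il6* at 0.717 and 2.28 (-1.67 [-2.51 to -0.89]). *Cxcl12* was at 8.15 and 19.4 (-1.25 [-1.43 to -1.07]), so that it was low in both, beside 284 RPKM in the confluent WT cells without PPARγ. *Il11* was at 4.43 and 0.733 RPKM (2.60 [2.05 to 3.19]) and *Lif* at 2.69 and 1.23 (1.12 [0.79 to 1.47]). *Cxcl5*, much lower in K36M cells at D0, was at 5.48 and 3.17 here (0.79 [0.46 to 1.13]), inside 2-fold and with the other sign. Of the marker lists, 0 of 5 preadipocyte markers passed 2-fold in this comparison, and 1 of 21 NF-κB pathway genes, *Tnfaip3*, was lower. Of 6 adipocyte markers, 3 (*Adipoq*, *Cebpa*, *Plin1*) were lower with K36M and 0 higher. The part of these shifts in the chemokine values was not tested.

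With Nsd2 KD at D0, 8 of 17 counted genes were lower than in Ctrl cells and 2 (*Ccl8*, *Il11*) were higher, beside 10.8% and 6.61% of all genes (median -0.96 beside 0.00 at 2 decimals). *Cxcl12* again had the lowest ratio, at 14.8 and 169 RPKM in Nsd2 KD and Ctrl cells (-3.51 [-3.65 to -3.38]). *Ccl2* was at 47.3 and 253 (-2.42 [-2.54 to -2.30]), *Cxcl1* at 8.34 and 33.0 (-1.98 [-2.26 to -1.71]), and *Il6* at 0.475 and 4.05 (-3.09 [-4.27 to -2.10]). *Cxcl10* (5.61 and 31.0 RPKM, -2.47 [-2.78 to -2.16]) and *Ccl5* (3.24 and 11.9 RPKM, -1.88 [-2.50 to -1.29]) were lower here, although both were inside 2-fold in K36M against WT cells at D0. *Cxcl16* (0.938 and 4.09 RPKM, -2.13 [-2.65 to -1.63]) and *Cxcl5* (2.11 and 5.08 RPKM, -1.26 [-1.71 to -0.83]) were lower as well. *Ccl7*, next to *Ccl2*, was at 129 and 158 (-0.29 [-0.38 to -0.21]). *Il11* was at 2.39 and 0.599 (2.00 [1.31 to 2.73]), and *Ccl8* at 2.02 RPKM with no read in Ctrl cells, at least 6.8-fold higher against 3 reads. Beside these, *Cd14* was at 7.97 and 2.47 RPKM, and the 13 leukocyte markers summed to 8.42 and 3.46. Of 6 preadipocyte markers 4 were lower with Nsd2 KD (*Ly6a*, *Pdgfra*, *Pdgfrb*, *Zfp423*) and 2 were higher (*Cd34*, *Dlk1*). *Pdgfra* was at 1.51 and 22.9 RPKM, a log2 ratio of -3.92 [-4.15 to -3.70], further from 0 than that of *Cxcl12*, and *Dlk1* at 171 and 38.1. Of 21 NF-κB pathway genes 2 were lower and 0 higher. The part of these shifts in the chemokine values was not tested.

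At D2, 4 of 13 counted genes (*Ccl2*, *Ccl5*, *Cxcl12*, *Il6*) were lower with Nsd2 KD and 2 (*Ccl27a*, *Lif*) were higher, beside 9.57% and 4.88% of all genes (median -0.44 beside -0.05). *Cxcl12* was at 1.51 and 19.7 RPKM (-3.71 [-4.15 to -3.29]) and *Il6* at 0.781 and 2.97 (-1.93 [-2.84 to -1.10]). These were also the pair lower in K36M cells at D2 among 12 genes counted in both comparisons, beside 1.59% of all genes. *Ccl2* was at 3.72 and 9.85 (-1.40 [-1.88 to -0.95]), *Ccl5* at 3.41 and 7.19 (-1.08 [-1.72 to -0.46]), and *Lif* at 1.43 and 0.392 (1.87 [1.26 to 2.51]). *Il11* was at 0.874 and 0.255 (1.78 [0.70 to 2.97]), under 1 RPKM in both and so not counted. At D2, 4 of 5 preadipocyte markers and all 6 adipocyte markers were lower with Nsd2 KD, and *Dlk1* was higher.

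Induction itself was followed by lower levels in these cells too. From D0 to D2, 10 of 15 counted genes in Ctrl cells were lower and 1 (*Ccl25*) was higher, beside 16.1% and 11.3% of all genes (median -1.96 beside 0.07). In Nsd2 KD cells 6 of 15 were lower and 1 (*Cxcl10*) was higher, beside 16.8% and 11.8% (median -0.77 beside 0.04). *Ccl2* and *Ccl7* were lower from D0 to D2 in WT, K36M, Ctrl, and Nsd2 KD cells alike, the 2 of 13 genes counted in all 4 populations to be so, beside 2.87% of all genes. In Ctrl cells their log2 ratios were -4.68 [-4.92 to -4.46] and -4.19 [-4.44 to -3.94], and in Nsd2 KD cells -3.67 [-4.10 to -3.26] and -4.19 [-4.49 to -3.90]. *Cxcl12* was lower in both, -3.10 [-3.21 to -2.99] and -3.29 [-3.74 to -2.87], as was *Cxcl5*, -4.23 [-5.39 to -3.27] and -3.63 [-5.30 to -2.33]. The others lower in Ctrl cells were *Cxcl16* (-3.49 [-4.27 to -2.79]), *Cxcl1* (-2.28 [-2.56 to -2.00]), *Lif* (-2.16 [-2.78 to -1.57]), *Csf1* (-1.96 [-2.02 to -1.90]), *Cx3cl1* (-1.19 [-1.42 to -0.95]), and *Ccl27a*. In Nsd2 KD cells they were *Il11* (-1.45 [-2.11 to -0.83]) and *Ccl8*, which had no read at D2 and was at least 6.08-fold lower. *Cxcl10*, which was 155-fold lower in WT cells, was at 31.0 and 28.7 RPKM in Ctrl cells at D0 and D2 (-0.11 [-0.27 to 0.05]) and at 5.61 and 21.1 in Nsd2 KD cells (1.91 [1.60 to 2.24]).

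The WT and Ctrl cells are both controls, and they were compared to show how far these genes differ between control populations. At D0, 18 of 24 counted genes were lower in Ctrl than in WT cells and 1 (*Ccl27a*) was higher, beside 15.1% and 7.1% of all genes (median -2.40 beside -0.24). *Ccl2* differed by -2.26 [-2.31 to -2.22], *Ccl7* by -2.36 [-2.42 to -2.30], *Ccl5* by -4.19 [-4.46 to -3.93], *Cxcl10* by -2.84 [-2.96 to -2.72], *Cxcl1* by -2.81 [-2.93 to -2.69], *Cxcl5* by -2.80 [-3.04 to -2.56], *Il6* by -2.82 [-3.16 to -2.50], and *Csf1* by -1.81 [-1.84 to -1.78]. Also lower were *Ccl9* (-2.40 [-2.78 to -2.03]), *Cxcl9* (-2.98 [-3.53 to -2.47]), *Il33* (-2.99 [-3.63 to -2.40]), *Lif* (-1.38 [-1.68 to -1.09]), *Ccl11* (-5.31 [-10.65 to -2.76]), and *Ccl8*, with no read in Ctrl cells and at least 17.2-fold lower. For *Ccl2*, *Ccl7*, *Ccl5*, *Cxcl10*, *Csf1*, *Cxcl9*, *Il33*, *Ccl11*, and *Lif* this is further than K36M from WT cells at D0, and both comparisons use the WT library. *Cxcl12* and *Il11* stayed inside 2-fold between the controls, at -0.75 [-0.80 to -0.71] and -0.75 [-1.56 to 0.01]. Of 21 NF-κB pathway genes, 0 were past 2-fold in either direction between the controls at D0. Of 6 preadipocyte markers, 2 (*Cd34*, *Ly6a*) were lower in Ctrl cells and 0 higher. Of 5 adipocyte markers, 3 (*Adipoq*, *Fabp4*, *Lpl*) were lower and 1 (*Cebpa*) was higher. The part of these shifts in the chemokine values was not tested. The 2 sets of cells received different viruses, and virus, culture, and library cannot be told apart. At D2, 6 of 13 counted genes were lower in Ctrl cells and 1 was higher, beside 6.42% and 4.82% (median -0.73 beside -0.14). The higher one was *Cxcl10* (4.33 [3.79 to 4.92]), and the lower ones were *Il11* (-3.20 [-4.31 to -2.25]), *Lif* (-2.18 [-2.81 to -1.60]), *Ccl9* (-1.39 [-1.83 to -0.97]), *Cx3cl1* (-1.20 [-1.44 to -0.97]), *Cxcl1* (-1.16 [-1.48 to -0.86]), and *Cxcl12* (-1.08 [-1.21 to -0.95]).

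**Figure D4:**
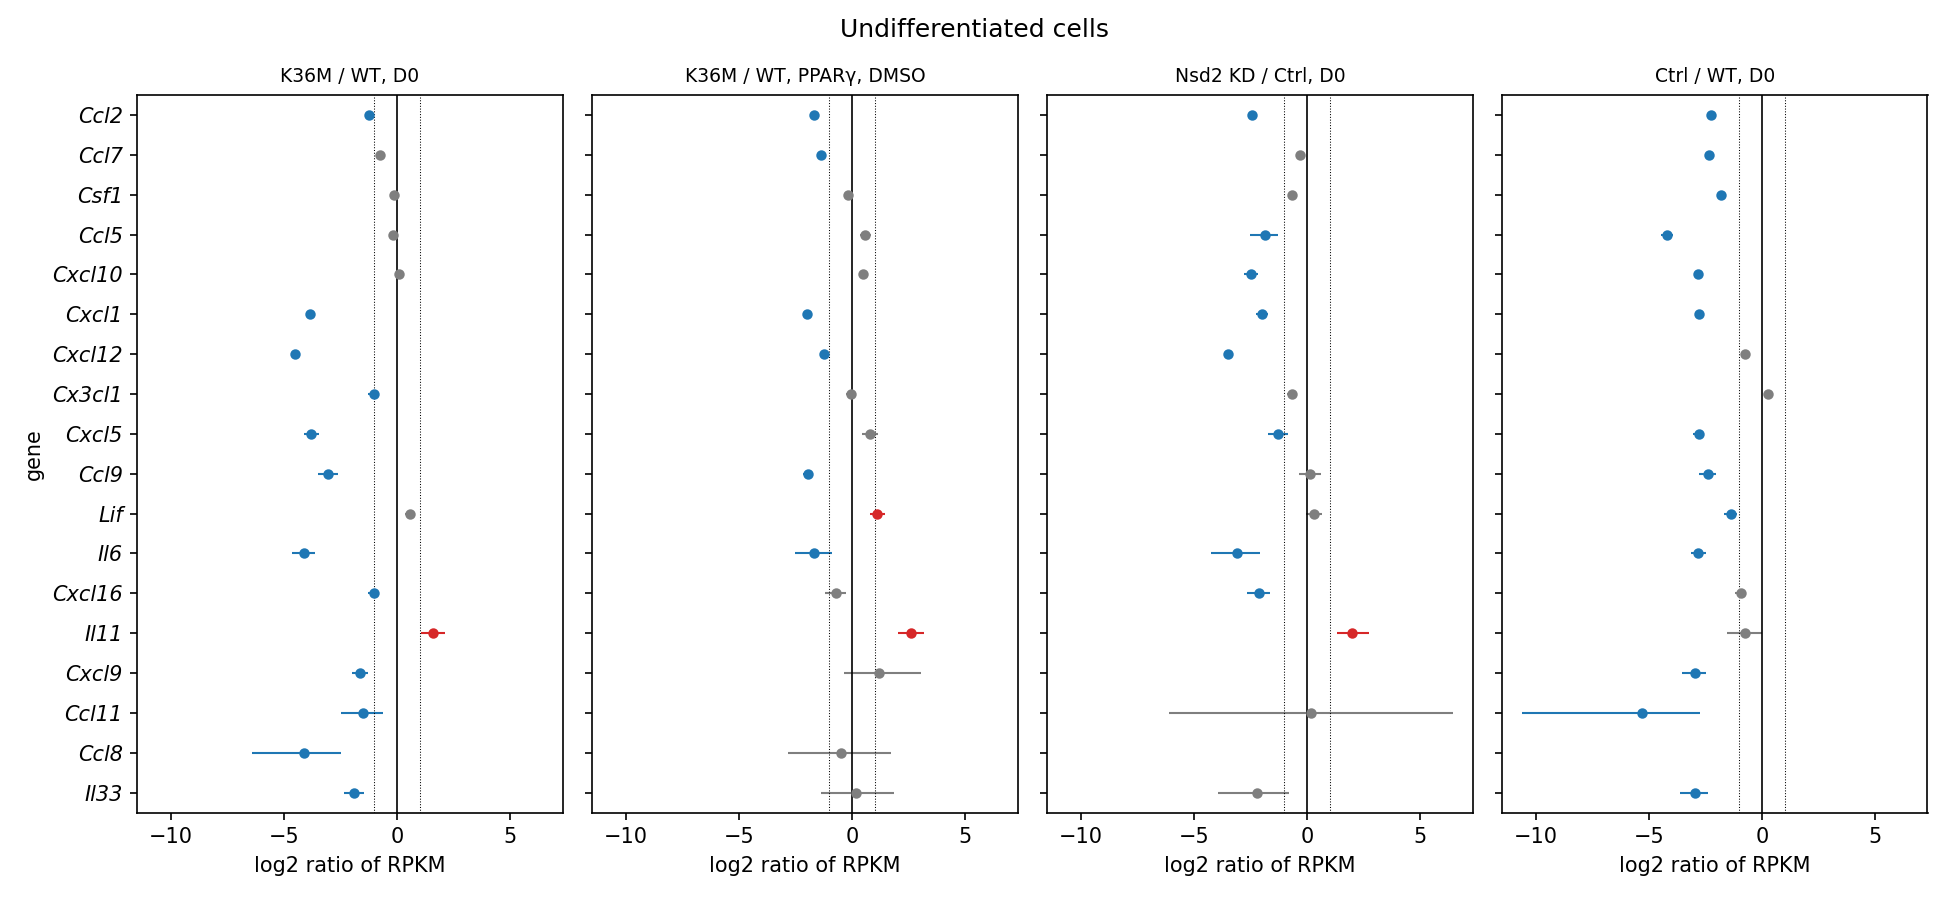
Log2 ratios of RPKM for the 18 genes that reached 5 RPKM in undifferentiated cells, for K36M against WT at D0, K36M against WT with PPARγ and DMSO, Nsd2 KD against Ctrl at D0, and the 2 controls against each other (Ctrl against WT, D0). Bars are 95% counting intervals, dotted lines mark 2-fold, and colors are red for higher, blue for lower, and gray for neither or below 1 RPKM in both. *Cxcl12* lies beyond 2-fold in the first 3 panels and inside it between the controls, whereas *Ccl2*, *Cxcl1*, and *Il6* lie beyond it in all 4.

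Most of these genes were inside 2-fold between the Rosi and DMSO libraries of cells with ectopic PPARγ. If the DMSO cells were collected at 0 h as labelled, and not at 24 h as the paper describes, ligand and time in culture cannot be told apart in this comparison. In WT cells 4 of 17 counted genes (*Ccl11*, *Ccl27a*, *Cxcl9*, *Cxcl10*) were higher with Rosi and 1 (*Csf1*) was lower, beside 9.96% and 5.05% of all genes (median -0.09 beside 0.06). In K36M cells 2 of 16 (*Cxcl9*, *Cxcl10*) were higher and 4 (*Cx3cl1*, *Cxcl5*, *Cxcl12*, *Il11*) were lower, beside 7.9% and 8.85% (median -0.18 beside -0.03). *Cxcl9* and *Cxcl10*, the pair of Cxcr3 ligands, were higher in both, of 15 genes counted in both, beside 3.66% of all genes. *Cxcl10* was at 14.3 and 93.0 RPKM with DMSO and Rosi in WT cells (2.70 [2.53 to 2.88]) and at 20.2 and 97.8 in K36M cells (2.28 [2.13 to 2.42]). *Cxcl9* was at 0.0791 and 2.73 in WT cells (5.11 [3.85 to 6.75]) and at 0.184 and 1.47 in K36M cells (3.00 [2.11 to 4.00]). *Ccl11* was at 0.257 and 1.46 in WT cells (2.51 [1.20 to 4.08]), and in K36M cells it had no read with DMSO and 0.221 RPKM with Rosi.

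*Csf1* was at 285 and 121 RPKM with DMSO and Rosi in WT cells (-1.24 [-1.27 to -1.20]) and at 249.6 and 137 in K36M cells (-0.86 [-0.90 to -0.82]), the latter inside 2-fold. *Ccl2* was at 704 and 492 in WT and 216 and 192 in K36M cells, likewise inside 2-fold. *Cxcl12* was at 19.4 and 23.9 in WT cells (0.31 [0.16 to 0.45]) and at 8.15 and 2.27 in K36M cells (-1.84 [-2.28 to -1.43]). *Cxcl5* was at 5.48 and 0.334 in K36M cells (-4.04 [-5.37 to -2.97]), *Il11* at 4.43 and 1.26 (-1.82 [-2.41 to -1.27]), and *Cx3cl1* at 5.09 and 2.14 (-1.25 [-1.61 to -0.91]). Whether the Rosi to DMSO ratios differ between WT and K36M cells was not tested. Over the same step *Fabp4* was at 112 and 2505 RPKM in WT and 69.4 and 1148 in K36M cells, and of 21 NF-κB pathway genes 0 were higher in either and 2 were lower in K36M cells. With Rosi, 7 of 18 counted genes were lower in K36M than in WT cells and 1 (*Il11*) was higher, beside 12.1% and 7.02% of all genes (median -0.76 beside -0.11). With each library scaled by its median ratio, 7 were lower and 3 higher. The lower genes were *Cxcl12* (-3.40 [-3.82 to -3.00]), *Ccl11* (-2.73 [-5.10 to -1.02]), *Ccl9* (-2.66 [-3.01 to -2.33]), *Cxcl5* (-2.30 [-3.69 to -1.14]), *Cxcl1* (-1.58 [-1.75 to -1.42]), *Ccl2* (-1.36 [-1.43 to -1.29]), and *Cxcl16* (-1.29 [-1.92 to -0.69]), and *Il11* differed by 2.76 [1.47 to 4.31]. In the same comparison 6 of 21 NF-κB pathway genes and 3 of 5 preadipocyte markers were lower in K36M cells, none of either list was higher, and 5 of 6 adipocyte markers were lower. Their part was not tested.

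**Figure D5:**
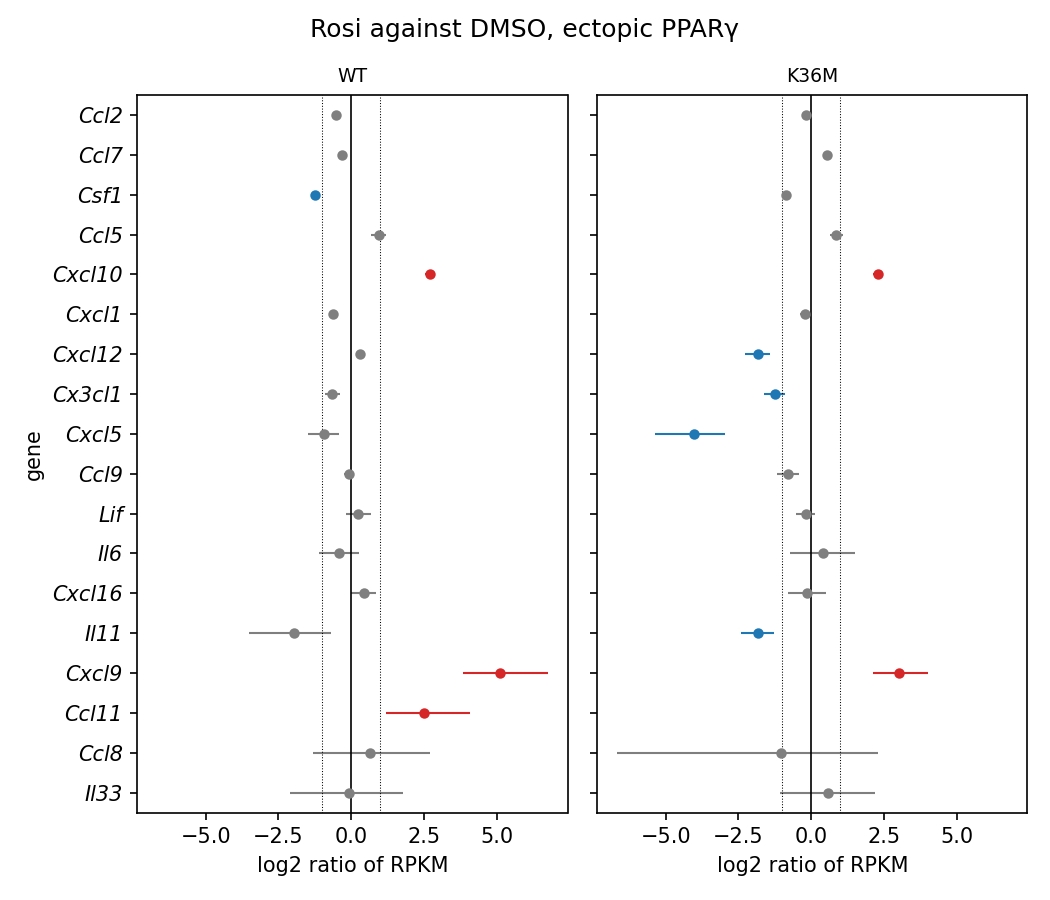
Log2 ratio of Rosi to DMSO RPKM in WT (left) and K36M (right) cells with ectopic PPARγ for the 18 genes that reached 5 RPKM, with 95% counting intervals and dotted lines at 2-fold (red higher, blue lower, gray neither or below 1 RPKM in both). *Cxcl10* and *Cxcl9* lie beyond 2-fold on the right in both panels, and *Cxcl12* beyond it on the left in K36M cells.

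The remaining genes that reached 1 RPKM stayed low. *Ccl25* ranged from 1.13 to 4.35 RPKM and *Ccl27a* from 0.689 to 3.55. *Cxcl2*, *Ccl4*, *Ccl20*, *Cxcl11*, *Csf3*, and *Cxcl3* ranged from 0 to 4.16, 2.23, 1.64, 1.63, 1.50, and 1.11 RPKM, and for *Cxcl2*, *Ccl4*, *Cxcl11*, and *Csf3* the highest library was K36M at D7.

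Receptors for these ligands split by class. Of 22 chemokine receptors, 19 never reached 1 RPKM (at most 0.869), and the 3 that did, *Ccrl2*, *Ackr3*, and *Ccr10*, named after their values were seen, peaked at 4.07, 3.14, and 1.31. Of 15 cytokine receptors, 12 reached 1 RPKM and 9 were at or above it in all libraries. *Il6st*, the gp130 chain shared by the receptors for Il6, Il11, and Lif, was at 132, 38.3, and 63.0 RPKM in WT cells and at 44.5, 34.5, and 90.8 in K36M cells. *Il1rl1*, the receptor for Il33, ranged widely, at 87.2, 1.87, and 1.73 RPKM in WT cells and at 249, 32.8, and 63.7 in K36M cells, while its ligand was lower in K36M cells at D0. In Nsd2 KD cells *Il1rl1* was at 44.8 and 0.0943 RPKM at D0 and D2, and in Ctrl cells at 17.7 and 0.264. Of 13 counted receptors, 7 were lower and 1, *Il1rl1*, was higher in K36M than in WT cells at D0, beside 6.36% and 5.02% of all genes. At D7, 5 of 13 were higher and 0 lower, beside 11.7% and 8.46%. Between the controls at D0, 7 of 13 were lower and 1, *Il11ra1*, was higher in Ctrl than in WT cells, beside 15.1% and 7.1%. *Il1rl1* was among the lower there, at -2.30 [-2.40 to -2.21], further from 0 than K36M against WT cells at D0 (1.52 [1.47 to 1.56]).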

How the data were processed

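RNA-Seq of mRNA from 14 cultures was used, 1 library per condition. The authors deposited RPKM for 29082 RefSeq transcripts per library. Per the labels' processing notes, CASAVA 1.8.2 and mm9 were used, and the aligner and counter are not given in the sources used here. The kits named do not mark strand. ChIP-Seq was not analysed here. RefSeq gave a symbol to 28432 transcripts (97.76%). The genes and lists were chosen with earlier results of these data known. Among transcripts with RPKM above 0 in 2 or more libraries, whole reads could be recovered for 26945 of 26946 (99.9963%). With library totals inferred from the RPKM values and annotated transcript lengths, these reads gave 95% Clopper-Pearson intervals of ratios. The intervals describe counting error between 2 libraries rather than a difference between conditions. The reads of *Ccl21a* were not recovered.

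A gene was counted at 1 RPKM or more in 1 of the 2 libraries and called over 2-fold. With 1 library per condition no test was made. A gene with no read was set against 3 reads in that library. Genes of at least 1 RPKM in a library were described, and genes of at least 5 RPKM also with the ratios past 2-fold. Marker and pathway genes were named from fixed lists. The 15 planned comparisons were followed by 2 of the Ctrl against the WT cells, added later. The 5 alternatives tried are given with the limits. Scripts ran in Python 3.11.15 with numpy 2.4.6, pandas 2.3.3, scipy 1.17.1, and matplotlib 3.10.9, and were tested on simulated data. *Ccl28* and *Ccl21d* match the rule by name but had no matching transcript.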

Additional observations from a re-analysis of the deposited data

Results flagged for a closer look

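The genes below had log2 ratios over 2-fold in opposite directions in the conditions compared. Each value is the difference between the 2 log2 ratios, from 1 library per condition, and the differences were not tested.

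Between D0 and D7, K36M cells went from lower to higher than WT cells by 8.23 for *Cxcl5*, 8.10 for *Ccl8*, 6.79 for *Cxcl1*, 6.25 for *Csf3*, 5.72 for *Ccl11*, 5.47 for *Il6*, 5.38 for *Cxcl11*, 5.08 for *Il33*, 4.33 for *Ccl9*, 3.92 for *Ccl2*, 3.10 for *Cxcl9*, and 2.06 for *Cxcl16*. *Csf3* and *Cxcl11* stayed below 2 RPKM in all libraries. By D2 the ratio had already gone from lower to higher by 6.57 for *Cxcl5* and by 3.72 for *Ccl2*. From D2 to D7 it went from lower to higher by 2.35 for *Ccl9* and by 3.43 for *Il6*. For *Il6* the same 4 libraries give the same 3.43 as the difference between its D2 to D7 courses, lower in WT and higher in K36M cells.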

How the results depend on the processing

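Depth limits genes near 1 RPKM, and with 1 library per condition no alternative addresses the spread between cultures. No paired analysis was possible because each condition has 1 library and no result comes from a test. Scaling by median ratios shifted libraries by -0.21 to 0.19 on the log2 scale. The 149 log2 ratios of named genes were recomputed under 3 alternatives (pseudocount, scaling, and summing over transcripts), and 77 of 447 values moved beyond the counting interval. The count reversed was 0, but a pseudocount cannot reverse a ratio. These scaling shifts are too small to reverse a ratio past 2-fold, and summing leaves genes with 1 transcript unchanged. No conclusion is drawn from the absence of reversals. Of 150 counts under 5 alternatives, 112 stayed within 1.5 times.

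Counting all genes above 0 RPKM, which admits genes with few reads, gave these numbers of higher genes: WT D0 to D2 2 (from 1), WT D2 to D7 20 (from 11), K36M D0 to D2 6 (from 2), K36M against WT at D2 13 (from 7), with DMSO 14 (from 3), and with Rosi 11 (from 1), Rosi in WT 11 (from 4) and in K36M cells 12 (from 2), Ctrl D0 to D2 7 (from 1), Nsd2 KD D0 to D2 4 (from 1), and Nsd2 KD against Ctrl 5 (from 2) at D0 and 7 (from 2) at D2. Lower genes became 6 (from 3) for WT D2 to D7, 8 (from 3) and 6 (from 1) for K36M against WT at D2 and D7, 12 (from 6) with DMSO and 14 (from 7) with Rosi, 10 (from 1) and 16 (from 4) for Rosi in WT and K36M cells, 19 (from 10) and 14 (from 6) for D0 to D2 in Ctrl and Nsd2 KD cells, and 17 (from 8) and 14 (from 4) for Nsd2 KD against Ctrl at D0 and D2.

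A pseudocount of 1, which shrinks the ratios of low genes, left 9 (from 15) lower and 1 (from 2) higher in K36M against WT cells at D0. It left 0 (from 1) higher for WT D0 to D2, for Ctrl D0 to D2, and for K36M against WT with Rosi, 0 (from 2) for Nsd2 KD against Ctrl at D2, 1 (from 2) for K36M D0 to D2, 1 (from 3) for K36M against WT with DMSO, and 2 (from 4) for Rosi in WT cells, and 1 (from 2) lower for K36M D2 to D7. Median ratio scaling gave 3 (from 1) higher for K36M against WT with Rosi and 2 (from 1) lower at D7. Summing transcripts, which counts reads shared by isoforms more than once, gave 2 (from 1) higher for K36M against WT with Rosi and for Nsd2 KD D0 to D2. Requiring the counting interval to exclude 1 left 1 (from 2) higher for Nsd2 KD against Ctrl at D2.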
